A study of Mus musculus with 30 samples.

Results

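The genes described here carry out or report the unfolded protein response, the program by which a cell adjusts to misfolded protein in the endoplasmic reticulum (ER). They are Hspa5, Hsp90b1, Sdf2l1, Pdia4, Dnajb9, Atf6, Xbp1, Atf4, Ddit3 and Herpud1, which were chosen by gene name. All 10 were listed in each of the 14 deposited tables, out of 20093 genes listed in at least 1 table. They were measured by 3′ RNA sequencing, which reads each transcript near its poly(A) tail, in mesenchymal cells freshly isolated from the intestine of C57BL/6 mice.

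The mice of all 10 groups carried ColVI-cre, a Cre recombinase under a collagen VI promoter, and the Rosa mTmG reporter, in which cells with past or present Cre activity turn from red (Tomato) to green (GFP). GFP therefore marks the history of that promoter and not a cell type. From the normal colon came GFP-positive, GFP-negative (Tomato) and unsorted cells, and the same preparations came from the colon of mice with colitis induced by DSS, the epithelial irritant dextran sulfate sodium. Cells with high GFP, with low GFP and without GFP, and unsorted cells, came from the small intestine of normal mice. The labels give 3 replicates per group but no mouse, so p-values measure only the spread between these samples, and 29 libraries were used, with 2 of unsorted small intestine. In the labels, normal and DSS colon libraries carry separate runs of library numbers, and what these runs stand for is not given. In every comparison of DSS with normal cells, DSS and any difference between the runs cannot be told apart.

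When unfolded protein accumulates in the ER, the membrane sensors IRE1 (gene Ern1), PERK (Eif2ak3) and ATF6 are released from the chaperone BiP, the product of Hspa5. IRE1 splices the mRNA of Xbp1, PERK slows translation and raises ATF4 protein, and ATF6 is cut to a transcription factor, and these factors raise chaperones, degradation components and, under lasting stress, Ddit3. Cells that secrete much protein, such as fibroblasts that make collagen and plasma cells that make antibody, depend on this machinery. Much of its control (splicing, translation, cleavage) does not show in the amount of an mRNA, and reads of the 3′ end do not tell spliced from unspliced Xbp1.

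ATF6 and XBP1 are known to act through short promoter elements, and the stretches that hold them are shown so that their letters can be compared between genes. Promoters of 9 of the 10 genes (250 bases before to 50 after the start) were found among 32851 RefSeq promoters of GRCm38.p6, with Atf6 missing. The ER stress response element, written as CCAAT, then any 9 bases, then CCACG and searched on both strands, was in those of Hspa5 and Hsp90b1 and in 0.119% of all promoters. Its variant, ATTGG, then 1 base, then CCACG, was in that of Herpud1 and in 0.0365% of all, and was searched after the other motifs had been chosen. TGATGCAA, an element bound by ATF4 with C/EBP factors, was in that of Herpud1, on the opposite strand and apart from the variant element, and in 0.895% of all. TGATGAAA (1.02% of all promoters) and TGACGTGG (0.676%) were in none of the 9. In the stretches below, read 5′ to 3′ along each gene, capitals mark these matches, and the second in Hsp90b1 and the first in Herpud1 are on the opposite strand.
Hspa5, chr2:34772013-34772055, plus strand: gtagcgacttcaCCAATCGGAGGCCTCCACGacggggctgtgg
Hsp90b1, chr10:86705521-86705668, minus strand: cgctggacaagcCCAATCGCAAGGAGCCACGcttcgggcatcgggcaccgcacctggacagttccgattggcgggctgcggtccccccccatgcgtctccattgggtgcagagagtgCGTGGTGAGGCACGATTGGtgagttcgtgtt
Herpud1, chr8:94386305-94386399, plus strand: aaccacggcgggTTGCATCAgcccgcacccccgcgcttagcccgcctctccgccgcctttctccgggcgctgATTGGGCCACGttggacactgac
The Hspa5 element lies 65 to 47 bases before the RefSeq start. Those of Hsp90b1 lie 212 to 194 and 107 to 89 bases before its start, and the variant in Herpud1 52 to 42 bases before. A match is a description of letters and not a bound site. In the tables' own mm10 coordinates the protein-coding genes that the results turn on are Hspa5 (ENSMUSG00000026864, chr2:34771970-34777547, plus strand), Hsp90b1 (ENSMUSG00000020048, chr10:86690209-86705509, minus strand) and Xbp1 (ENSMUSG00000020484, chr11:5520659-5525893, plus strand). Ddit3 (ENSMUSG00000025408, chr10:127290774-127296288) and Herpud1 (ENSMUSG00000031770, chr8:94386438-94395377) lie on the plus strand. Hspa5 starts in these coordinates before the stretch shown, so its element lies within the gene here and upstream of it by the RefSeq start.

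Depth was estimated from the value that 1 read takes in a library, which could be read for 27 of the 29 libraries, and ran from 1227230 to 4414784 reads. Values are the authors' normalised read counts, and the tables keep a scale of their own for normal colon, for DSS colon and for small intestine, so levels are compared only within them. The tables of DSS against normal cells hold a scale common to the 12 sorted colon libraries. The summed value of 10 mesenchymal markers, collagens and Vim among them, ran from 26154 to 117530 in the sorted libraries. The leukocyte marker Ptprc was at 0 to 19 there, and the epithelial marker Epcam at 1 to 115. These are single genes and do not show that the sorts were free of other cells. Summed plasma and B cell markers were far above these values in sorted colon cells, as given with the results below. In bulk samples, fewer cells of a type and less RNA per cell cannot be told apart.

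In GFP-positive cells of the colon, Xbp1 and Hsp90b1 rose with DSS, and no member fell. Xbp1, the transcription factor activated by IRE1, rose 2.22-fold, and Hsp90b1, the ER form of the chaperone HSP90, rose 2.00-fold. Those 2 of 10 members stand beside 10.2% of all 12976 genes tested that rose, 9.46% that fell and 19.7% that changed in either direction at an adjusted p under 0.05. The share that rose among the members is above the background by about 1 gene, so that the count says little of the members as a set. Their median log2 difference was 0.34, against -0.01 over all genes tested, and 9 of 10 estimates were above 0, against 49.5% of all genes.

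Taking the chaperones first, Hspa5 was at 41794, 20778 and 45967 normalised counts in libraries 1, 2 and 3 of normal GFP-positive cells, and at 58438, 64924 and 49631 with DSS. All DSS libraries were above all normal ones, with library 2 low among the normal. The log2 difference of 0.75 (SE 0.30, adjusted p = 0.0958) did not pass the threshold. For Hsp90b1 the normal libraries held 1249, 930 and 519 and the DSS libraries 1820, 1997 and 1324. These do not overlap either, and means of 899 ± 366 and 1714 ± 349 (SD, n = 3) gave a log2 difference of 0.998 (SE 0.30, adjusted p = 0.0365).

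The lesser chaperones and folding factors gave no call in these cells. Sdf2l1, which works with BiP in the ER lumen, was at 37, 40 and 53 without and 45, 51 and 66 with DSS, with overlapping ranges and a log2 difference of 0.31 (adjusted p = 0.439). Dnajb9, an ER co-chaperone also called ERdj4 that helps BiP to bind IRE1, was at 358, 209 and 437 and then at 368, 391 and 349, the DSS libraries lying within the normal range. Pdia4, a disulfide isomerase, was near the low end of what was measured, at 21, 14 and 28 and then at 16, 22 and 14. Its log2 difference was -0.24 (95% interval -1.04 to 0.57).

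Among the sensors and transcription factors of GFP-positive cells, Xbp1 was at 486, 285 and 224 without and at 698, 825 and 590 with DSS. The ranges do not overlap, and the means of 332 ± 137 and 704 ± 118 (SD, n = 3) differ by 1.15 on the log2 scale (SE 0.27, adjusted p = 0.0106). Atf6, the sensor that becomes a transcription factor, was at 146, 102 and 123 and then at 176, 184 and 165. These values also stand apart, but the log2 difference of 0.51 (SE 0.21) missed the threshold (adjusted p = 0.103).

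Atf4 and Ddit3, the factors downstream of PERK, overlapped between normal and DSS GFP-positive cells. Atf4 read 7345, 2230 and 5857 in normal libraries and 4148, 6252 and 4097 with DSS, a log2 difference of 0.05 with a 95% interval from -0.89 to 0.99. Ddit3, which encodes the factor CHOP, read 641, 272 and 667 and then 499, 675 and 511 (0.19, interval -0.52 to 0.89). In both genes library 2 of the normal cells was the lowest of all 6. Herpud1, which brings substrates to the ER-associated degradation complex, was at 1311, 447 and 970 and at 1123, 1243 and 895, and its difference of 0.38 did not pass (adjusted p = 0.475). With normal libraries taken from the normal colon table it was 0.89 (adjusted p = 0.0808).

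The ranges of 4 members (Hspa5, Hsp90b1, Xbp1 and Atf6) were higher with DSS with no overlap, where 19.2% of genes tested were. The call of Xbp1 was lost when DSS library 2 was left out (log2 difference 1.03, adjusted p = 0.0597). That of Hsp90b1 was lost when any of 4 single libraries was left out, namely normal library 2 (adjusted p = 0.0517) or 3 (0.65, adjusted p = 0.0745) and DSS library 1 (adjusted p = 0.119) or 2 (adjusted p = 0.139), while without normal library 3 Hspa5 passed (0.96, adjusted p = 0.0399). Hsp90b1 was also lost under upper quartile scaling (adjusted p = 0.0519) and without trend and robust variance (adjusted p = 0.0866). The authors' deposited table called 0 of the 10 genes by DESeq at an FDR under 0.05.

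**Figure D1:**
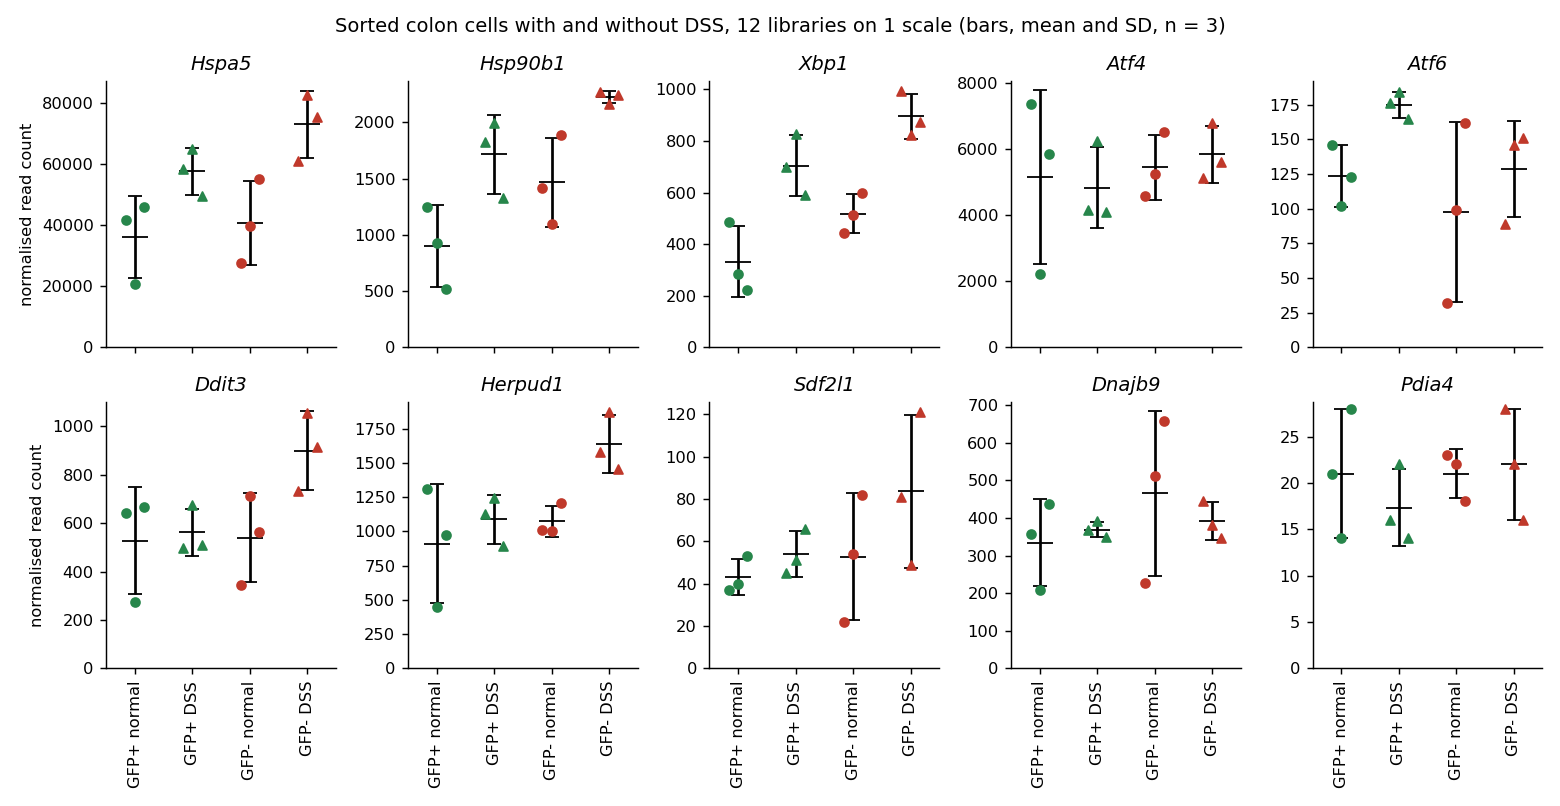
Normalised read counts (vertical axes, linear from 0) of the 10 genes in sorted colon cells without (circles) and with DSS (triangles), with mean and SD of 3 libraries. Xbp1 in DSS libraries of GFP-positive cells sits between 590 and 825, above the normal range of 224 to 486, and Atf4 overlaps between conditions in both sorts.

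With DSS in GFP-negative cells, 0 of the 10 members passed limma's test, where 10.3% of 13025 genes did (6.03% higher and 4.27% lower), and 5 had an unadjusted p under 0.05. The authors' DESeq values in the deposited table also called 0. Yet 5 members (Hspa5, Hsp90b1, Xbp1, Ddit3 and Herpud1) were higher in every DSS library than in every normal one, where 16.3% of genes tested were. The median log2 difference of the members was 0.63, against -0.02 over all genes.

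Hspa5 in these cells was at 27726, 39744 and 55102 normalised counts in normal libraries and at 60864, 82532 and 75484 with DSS. Library 1 was the lowest of either condition, and the log2 difference was 0.88 (SE 0.34, adjusted p = 0.124). Hsp90b1 was at 1413, 1099 and 1886 and at 2265, 2163 and 2244, with a coefficient of variation of 2.42% among the DSS libraries. Its difference was 0.64 (SE 0.27, adjusted p = 0.159). Xbp1, at 445, 514 and 597 and then at 992, 823 and 872, came nearest to the threshold (0.79, SE 0.24, adjusted p = 0.0560).

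Ddit3 of GFP-negative cells was at 345, 713 and 564 in normal libraries and at 732, 1055 and 914 in DSS libraries. The lowest DSS value lay only just above the highest normal value, and the difference was 0.78 (SE 0.30, adjusted p = 0.118). Herpud1 was at 1006, 1005 and 1206 and then at 1582, 1874 and 1457, with a difference of 0.61 (SE 0.25, adjusted p = 0.138). For this gene the normal libraries carry values in the DSS tables that are 1.18 to 1.28 times (GFP-negative) and 1.30 to 1.65 times (GFP-positive) what their values in the normal colon table imply, while DSS libraries carry the same. With the values of the normal colon table, brought to the common scale by each library's median ratio, Herpud1 rose past the threshold in GFP-negative cells (log2 difference 0.92, adjusted p = 0.0350), an alternative chosen after seeing the data. Per library, 58 to 76 of 10941 to 11234 genes with at least 20 counts were off by over 0.15 on the log2 scale in normal libraries, and 0 in DSS libraries. What makes the tables differ was not tested, so the DSS difference of Herpud1 depends on the table taken.

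The other 5 members overlapped between normal and DSS GFP-negative cells. Atf4 was at 4589, 5240 and 6522 and then at 5118, 6788 and 5600 (log2 difference 0.10, interval -0.50 to 0.71). Dnajb9 was at 226, 513 and 658 and then at 446, 382 and 346, and Pdia4 at 23, 22 and 18 and then at 28, 22 and 16. Atf6 (32, 99 and 162 against 89, 146 and 151) and Sdf2l1 (22, 54 and 82 against 81, 49 and 121) varied most among the normal libraries. In both, normal library 1 was the lowest.

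Whether the sorts responded differently was tested directly on the common scale. The GFP-positive response minus the GFP-negative response passed for 0 of 10 members in limma's fit, where 0.0519% of 13488 genes (7) did, and 0 had an unadjusted p under 0.05. The authors' deposited table has no test of this difference. The estimates ran from -0.59 for Ddit3 (95% interval -1.58 to 0.39) to 0.36 for Hsp90b1 (-0.53 to 1.25), with Xbp1 at 0.36 (-0.42 to 1.13) and Hspa5 at -0.13 (-1.16 to 0.89). Intervals this wide hold differences of over 2-fold. In simulated data, with the median spread given to every gene, 10% of 2-fold and 89% of 4-fold differences were called. The calls in GFP-positive cells are thus not shown to be particular to them.

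**Figure D2:**
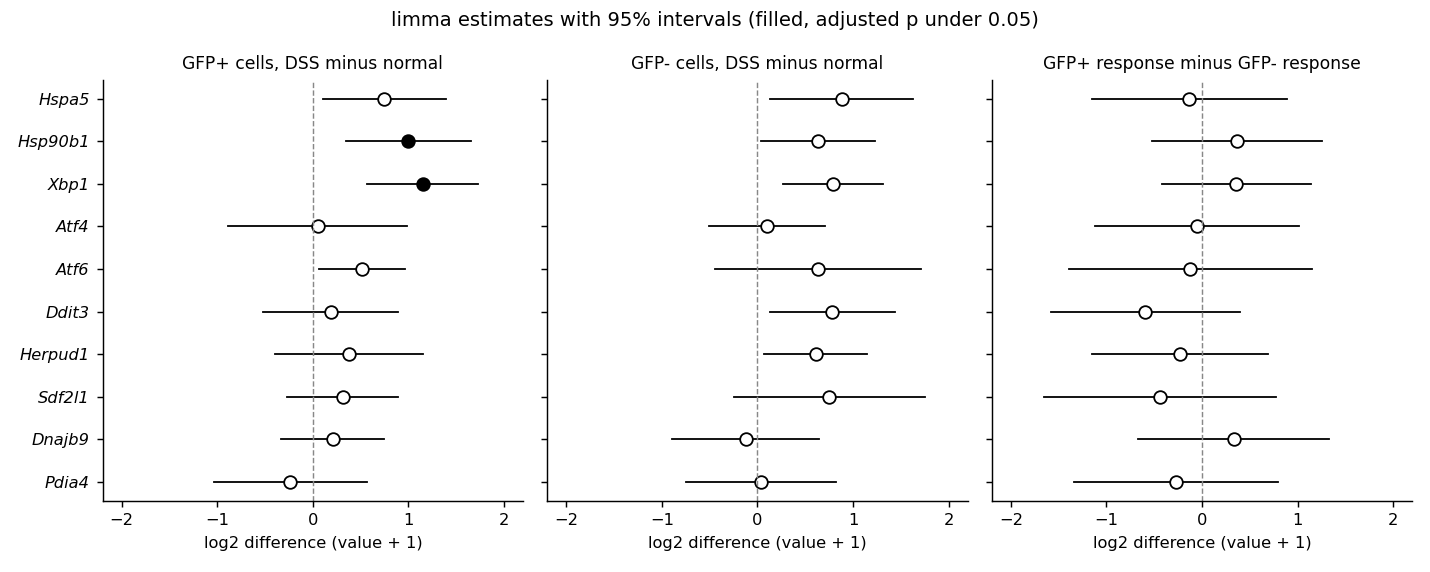
Log2 differences (horizontal axes, on the value + 1 scale) with 95% intervals for each gene in GFP-positive cells, GFP-negative cells and for the difference between them. Filled points, Xbp1 at 1.15 and Hsp90b1 at 0.998 in GFP-positive cells, passed the threshold, and in the third panel all intervals include 0.

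Other genes of the response did not move as a block with DSS in GFP-positive cells. Counts of the lists in these cells stand beside 10.2% of all genes tested that rose and 9.46% that fell. Of the 12 sensors and regulators tested, 3 rose and 0 fell: Mbtps1, the protease that cuts ATF6 (log2 difference 0.60), Eif2s1, the translation factor that PERK phosphorylates (0.84), and Nfyb, a subunit of the factor that binds CCAAT (0.89). Eif2ak3 was at 117, 54 and 66 and then at 130, 129 and 135, with a difference of 0.80 (adjusted p = 0.0524), and Ern1 at 61, 47 and 113 and then at 76, 151 and 86 (adjusted p = 0.302). Among 26 ER chaperones and folding enzymes, 1 rose and 2 fell, with a median of 0.19. Hyou1, a large ER chaperone of the HSP70 kind, went from 260, 138 and 211 to 403, 376 and 449 (1.05, adjusted p = 0.00856), all DSS libraries being higher. The co-chaperone Dnajb11 (-0.86) and the prolyl isomerase Fkbp14 (-0.81) fell.

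ER-associated degradation gave 2 rises and 0 falls among 19 genes tested in GFP-positive cells, a share of rises near the 10.2% of all genes. These were Syvn1, the ubiquitin ligase of the complex that Herpud1 joins (0.95), and Edem3, which trims glycans of misfolded proteins (0.62). Of 28 translocon and signal peptide genes 5 rose and 0 fell, among them Ssr2 (0.94) and Ssr4 (0.82) of the translocon-associated complex and Srp19 of the signal recognition particle (0.88). Of 11 collagen folding enzymes, Serpinh1, the collagen chaperone HSP47, rose (0.99) and Crtap, part of the prolyl 3-hydroxylase complex, fell (-0.88).

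Genes on the list of PERK and ATF4 targets went in both directions in GFP-positive cells, 1 rising and 3 falling of 24 tested, with a median of -0.01. Atf3, a stress-induced transcription factor, went from 457, 348 and 791 to 1741, 1899 and 928 (1.53, adjusted p = 0.0131). Chac1, a glutathione-degrading enzyme known as a target of ATF4 and CHOP, went from 14, 4 and 36 to 4, 0 and 0 (adjusted p = 0.0298), and Shmt2 (-1.18) and Atf5 (-0.64) also fell. In GFP-negative cells Chac1 was at 3, 28 and 26 in normal libraries and was listed at 0 in all 3 DSS libraries (adjusted p = 0.0277). These low values lie near the limit of a few reads.

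The same lists were then counted in GFP-negative cells, with no test of a difference in counts. Of all genes tested in these cells, 6.03% rose and 4.27% fell. Nfyb rose (0.98) of 12 sensors and regulators, with Eif2ak3 at 0.42 (adjusted p = 0.322) and Ern1 at 0.64 (adjusted p = 0.288). Of 26 chaperones, Hyou1 (0.94) and Manf, a secreted ER stress factor (1.03), rose, and Txndc5, a disulfide isomerase (-1.31), and Dnajb11 (-0.90) fell. Of 26 genes tested on the PERK and ATF4 list, 3 rose, namely Wars (1.39), Cebpb (1.35) and Ppp1r15b (0.86), and Chac1 fell. Ppp1r15b encodes a phosphatase subunit that reverses the action of PERK, which does not make it a target of PERK. Srp19 rose (1.18) among 28 translocon genes. None of 20 degradation genes and none of 12 collagen folding enzymes passed limma's test, with 2 and 3 at an unadjusted p under 0.05.

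The cytosolic heat shock list, which holds heat shock and chaperone genes and Hsf1 itself, had the highest median of the pathway lists in either sort. Heat shock induction works through another factor, HSF1, whose activity was not measured. In GFP-positive cells 11 of 16 rose and 0 fell (median 1.20), led by Hsph1 (2.39), Hspb1 (2.04) and Bag3 (2.04). Of all genes 10.2% rose and 9.46% fell there. In GFP-negative cells 5 of 16 rose and 0 fell (median 0.98), led by Hspb1 (2.54), Bag3 (2.25) and Hspb8 (2.09), where 6.03% and 4.27% of all genes did. The summed value of the 16 genes ran from 37978 to 51592 without and from 70708 to 105083 with DSS in GFP-positive libraries, and from 33596 to 60366 and from 74929 to 100667 in GFP-negative ones. Marker lists of cell types moved with DSS in GFP-positive cells too. Of those tested, 4 of 10 myeloid markers rose (sum 134 to 372, then 355 to 835), 4 of 7 smooth muscle and pericyte markers rose (578 to 1058, then 2011 to 2500) and 7 of 10 mesenchymal markers fell (67660 to 76937, then 35691 to 39212). In GFP-negative cells the plasma and B cell markers summed to 5012 to 32882 without DSS and to 1960 to 4356 with it, and epithelial markers to 10 to 344 and to 169 to 730, with 0 of 8 of the latter past limma's test and 2 at an unadjusted p under 0.05. In the same cells 2 of 10 myeloid markers rose (174 to 365, then 537 to 818), 2 of 7 smooth muscle and pericyte markers rose (432 to 1076, then 1125 to 1875) and 1 of 10 mesenchymal markers fell (70652 to 99190, then 73725 to 98435). Of 7 endothelial markers 0 passed limma's test and 5 had an unadjusted p under 0.05, with a median log2 difference of -0.34 and 3 estimates above 0. In GFP-positive cells 1 endothelial marker rose and 1 fell of 7 (246 to 293, then 372 to 440). The part of any of these in the members' differences was not tested.

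**Figure D3:**
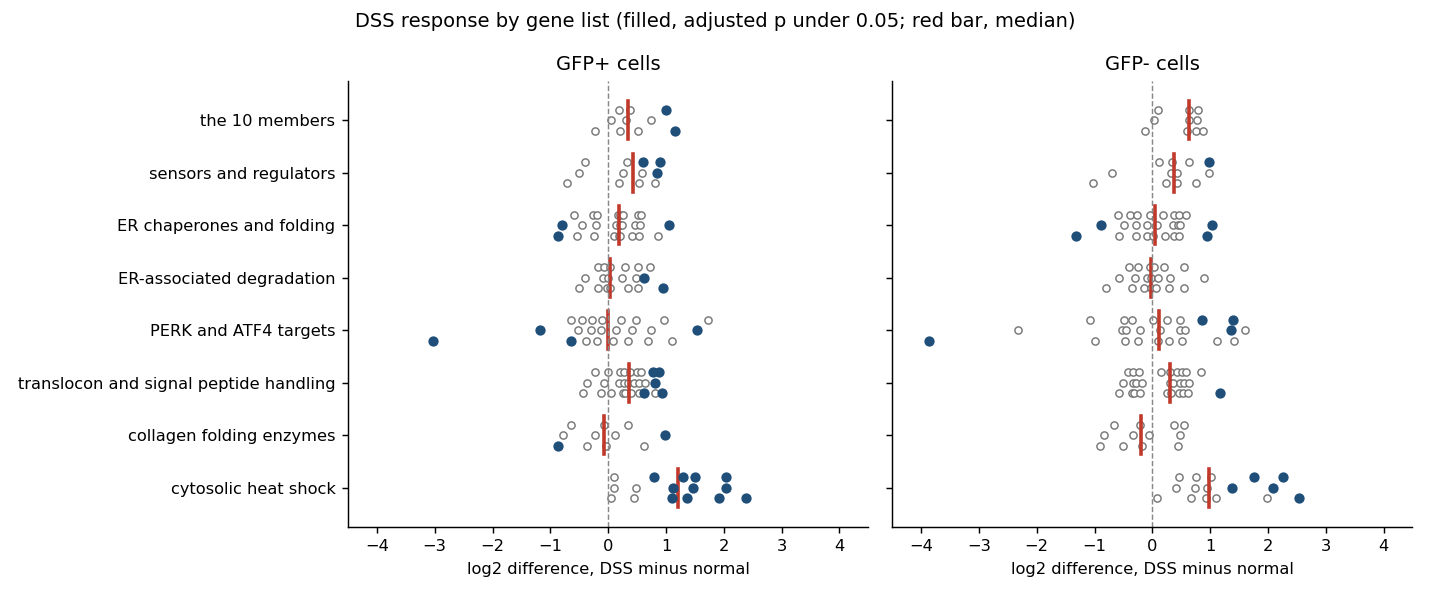
Log2 differences, DSS minus normal (horizontal axes), of single genes by list, with filled points past the threshold and red bars at each list's median. The heat shock list stands at a median of 1.20 in GFP-positive and 0.98 in GFP-negative cells, and the 10 members at 0.34 and 0.63.

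In several libraries nearly all members lay on the same side of their group mean. In library 2 of normal GFP-positive cells 9 of 10 were below their group mean (median deviation -0.56 on the log2 scale, against 0.0047 over all genes), and in library 1 of normal GFP-negative cells 9 of 10 were (-0.37). Library 3 of DSS GFP-positive cells had 9 of 10 below (-0.21), while library 3 of normal GFP-negative cells had 1 of 10 below. Of all genes, 49.2%, 50.2%, 48.2% and 48.5% lay below in these libraries, in the order named. In GFP-positive cells, leaving out library 2 of the normal colon turned 4 estimates of the DSS difference negative, to -0.47 for Atf4, -0.23 for Ddit3, -0.07 for Herpud1 and -0.10 for Dnajb9. With values of the normal colon table, that of Herpud1 was 0.51 (adjusted p = 0.158) without this library. It lowered that of Hspa5 to 0.39 (adjusted p = 0.265), while Xbp1 stayed past the threshold (1.08, adjusted p = 0.0246). The median coefficient of variation of the members was 39.0% in normal and 17.1% in DSS GFP-positive cells, and 30.3% and 14.9% in GFP-negative cells.

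**Figure D4:**
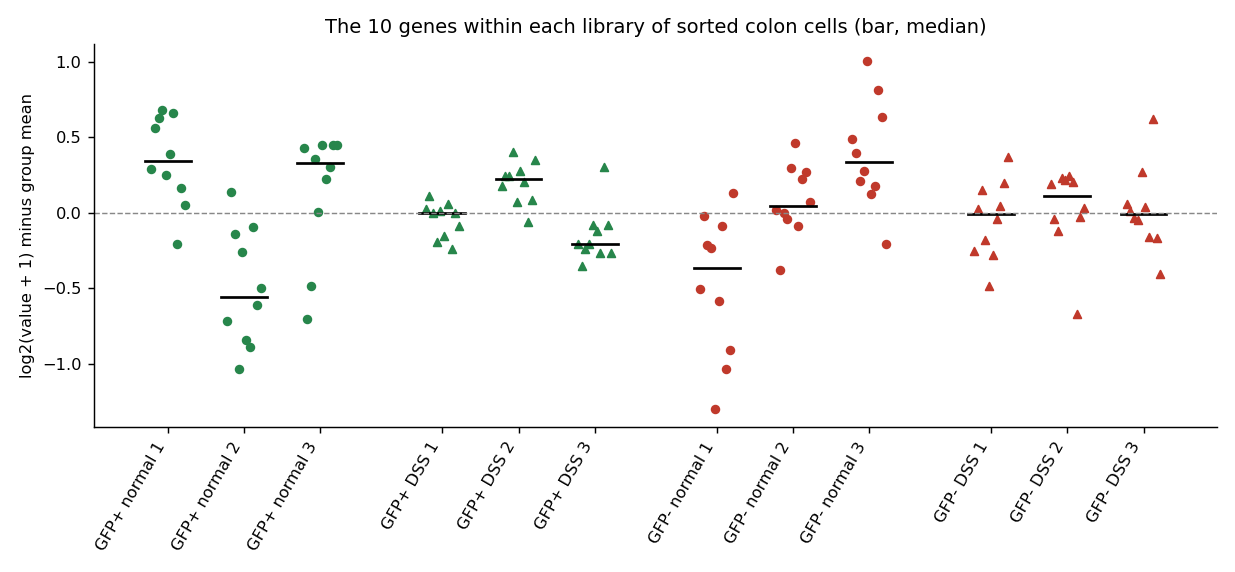
Deviation of each gene from its group mean (vertical axis, log2 of value + 1) in the 12 libraries of sorted colon cells, with a bar at the median of the 10 genes. Library 2 of normal GFP-positive cells is lowest at -0.56, and the 6 DSS libraries lie between -0.21 and 0.22.

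Of genes outside the set, those nearest to Hspa5 over the 12 sorted colon libraries were Srfbp1, Atg101, Ppp1r15b, Rabgef1 and Mapk8. Nearness was the root mean square difference in log2(value + 1) after centring each gene on its mean, and was 0.23 to 0.24 for these genes, against a median of 0.74 over 13488 genes. Srfbp1 went from 35, 20 and 39 to 80, 67 and 52 in GFP-positive and from 27, 51 and 51 to 83, 104 and 79 in GFP-negative cells. Among the members, Ddit3 (0.28, rank 23 of all genes) and Herpud1 (0.29, rank 40) lay nearest and Pdia4 (0.59) farthest. Points share library and depth, and the distances are a description.

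In the DSS colon, GFP-positive cells held less Ddit3 and Herpud1 than GFP-negative cells. Ddit3 was at 426, 575 and 436 in GFP-positive and at 624, 895 and 778 in GFP-negative libraries, with no overlap, and means of 479 ± 83.3 and 766 ± 136 (SD, n = 3). Its log2 difference of -0.67 (SE 0.19) had an adjusted p of 0.0267. Herpud1 was at 960, 1058 and 765 against 1348, 1590 and 1240, also apart (928 ± 149 and 1393 ± 179, n = 3), with a difference of -0.59 (SE 0.19, adjusted p = 0.0408). The 2 of 10 members called compare with 17.1% of all 12570 genes, 8.9% being lower and 8.22% higher, so this share is near the background. DESeq in the authors' deposited table called 0 of the 10.

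Hsp90b1 was lower in every GFP-positive than in every GFP-negative library of the DSS colon (1556, 1700 and 1131 against 1929, 1835 and 1910), but its difference of -0.39 did not pass (adjusted p = 0.183). Atf6 was higher without overlap (151, 157 and 141 against 76, 124 and 128), at 0.49 (adjusted p = 0.154). In all, 3 members were lower and 1 higher without overlap, where 16.5% and 17.1% of genes tested were. Hspa5 was at 49970, 55260 and 42387 and at 51847, 70030 and 64240, and Xbp1 at 597, 702 and 504 and at 845, 698 and 742, with ranges that overlap. The call of Ddit3 was lost without GFP-negative library 2 (adjusted p = 0.117) or 3 (adjusted p = 0.0578) or GFP-positive library 1 (adjusted p = 0.125) or 3 (adjusted p = 0.0988). That of Herpud1 was lost without GFP-negative library 2 (adjusted p = 0.146) or any GFP-positive library (adjusted p = 0.0541 to 0.174). Without trend and robust variance both were lost (adjusted p = 0.0921 for Ddit3 and 0.112 for Herpud1), and with equal totals Herpud1 was (adjusted p = 0.0517).

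Further genes that were lower in the GFP-positive sort during DSS were Stc2, a secreted PERK target (-2.49), Sesn2 (-1.07) and Atf5 (-0.84), with Gdf15, a stress-induced secreted factor, higher (0.78), out of 24 tested on the PERK and ATF4 list. Counts of the lists stand beside 8.9% of all genes tested that were lower and 8.22% that were higher. Manf was lower (-0.74) of 26 chaperones and Herpud2 (-0.72) of 20 degradation genes, and 0 of 11 sensors passed, with Eif2ak3 at 0.39 and Ern1 at 0.34 and 1 of them at an unadjusted p under 0.05. Spcs3 (-1.06) was lower and Srp14 (0.58) higher among 28 translocon genes. Hspb8 (-2.80) and Dnajb1 (-0.70) were lower and Hspa4l (1.04) higher among 16 heat shock genes. Among 12 genes of the collagen folding list, the collagen hydroxylases P4ha3 (-2.18) and Plod2 (-0.76) and the ER cation channel Tmem38b (-0.91) were lower and Plod1 (0.71) was higher. Plasma and B cell markers, 1 higher and 4 lower of 6 tested, summed to 972 to 1568 in GFP-positive and 1660 to 3704 in GFP-negative libraries. Epithelial markers, 0 higher and 6 lower of 8, summed to 61 to 79 and 144 to 612. Mesenchymal markers, 2 higher and 5 lower of 10, summed to 30378 to 33531 and 62555 to 83849, and smooth muscle and pericyte markers, 3 higher and 1 lower of 7, to 1716 to 2138 and 957 to 1596. Endothelial markers were 1 higher and 3 lower of 5 tested (sums 319 to 376 and 293 to 469), glial and neuronal ones 2 lower of 3 (33 to 73 and 72 to 119) and myeloid ones 1 lower of 10 (303 to 715 and 458 to 695). The part of these markers in the members' differences was not tested.

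In the normal colon no member differed between the sorts in limma's test (0 of 10, against 5.98% of 13346 genes, 2.97% higher and 3.01% lower, and 1 at an unadjusted p under 0.05, with 0 in the authors' deposited table). Xbp1 was at 581, 339 and 266 in GFP-positive and at 529, 609 and 709 in GFP-negative cells, a log2 difference of -0.71 (adjusted p = 0.271). Hspa5 was at 50263, 24869 and 55011 against 33137, 47430 and 65736, and Hsp90b1 at 1494, 1109 and 616 against 1679, 1302 and 2240, with overlap in each. Of the wider lists, Derl3, a degradation channel component of secretory cells, was at 3, 2 and 2 against 10, 28 and 95 (-3.24, adjusted p = 0.0245). Phgdh (-2.74), Vldlr (-1.96), Stc2 (-1.39) and P4ha3 (-2.31) were also lower and Hspa4l (1.42) was higher. Beside them, 3 of 8 plasma and B cell markers tested were lower and 1 higher in GFP-positive cells. The sum of that list was 1211 to 6065 against 5959 to 39063, and its part was not tested.

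Unsorted cells hold the other cell types of the preparation and were described without a test. In the normal colon Sdf2l1 was at 175, 165 and 362 in unsorted cells, against 44, 47 and 63 in GFP-positive and 27, 64 and 98 in GFP-negative cells. Herpud1 was at 1719, 3495 and 1243, against at most 1168 and 1117, and Xbp1 at 1383, 1084 and 785, against at most 581 and 709. These 3 genes, and Dnajb9 against GFP-positive cells only, were above the whole sorted range, which made 4 of 10 against GFP-positive and 3 of 10 against GFP-negative cells, where 21.9% and 20.8% of genes were higher without overlap. On the scale shared with DSS libraries, Herpud1 of the sorted cells was higher than the values here imply. The factor was 1.18 to 1.28 in GFP-negative and 1.30 to 1.65 in GFP-positive cells. Unsorted libraries have no value on that scale, so the gap for Herpud1 depends on the values taken. Plasma and B cell markers summed to 130462 to 245420 in unsorted libraries, against 1212 to 6065 and 5960 to 39087 (over the markers these tables list), and epithelial markers to 2667 to 23267, against at most 462 and 421. Their part was not tested.

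In the DSS colon unsorted cells lay below GFP-negative cells for 6 of 10 members without overlap, where 19.9% of genes did. They were Hspa5 (37368, 43819 and 46056), Hsp90b1 (796, 1327 and 1126), Xbp1 (552, 661 and 666), Atf4 (3183, 2340 and 3100), Ddit3 (339, 361 and 448) and Herpud1 (1203, 1201 and 1196). Sdf2l1, at 216, 107 and 124, was the 1 member of 10 above them, where 24.7% of genes were. Against GFP-positive cells, Herpud1 and Sdf2l1 were higher (2 of 10, against 26.7% of genes) and Atf4 lower (1 of 10, against 22.5%). Heat shock genes summed to 42054 to 42843 in unsorted cells, against 60389 to 89440 in GFP-positive and 63768 to 85418 in GFP-negative cells, and their part was not tested.

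In the small intestine, limma called 0 of 10 members between high GFP and GFP-negative cells (0.894% of 12412 genes passed, and 0 members had an unadjusted p under 0.05), between low GFP and GFP-negative cells (0.675% of 12445, and 2) and between high and low GFP cells (0.384% of 12226, and 1). The authors' deposited table called 0 in each. In simulated data, with the median spread given to every gene, 9% to 11% of 2-fold differences were called. That rate belongs to the simulated setting and not to single members, and the lack of a call here does not show the lack of such a difference. The member with the lowest p was Atf4, at 1377, 1458 and 584 in low GFP and 2335, 3460 and 2460 in GFP-negative cells. These ranges stand apart, with a log2 difference of -1.36 (SE 0.36, adjusted p = 0.102).

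Ddit3 went the same way as Atf4 (109, 99 and 73 against 206, 131 and 196) with a log2 difference of -0.91 (adjusted p = 0.221), and Atf6 was higher in low GFP libraries (80, 85 and 59 against 46, 50 and 43). In that comparison 2 members were lower and 1 higher without overlap, where 12.5% and 10.7% of genes were. Hspa5 was at 14981, 6132 and 7893 in high GFP, 14833, 11068 and 7716 in low GFP and 14851, 6372 and 11729 in GFP-negative cells, library 1 being highest in each. Library 1 of low GFP cells had 0 of 10 members below the group mean, and library 1 of high GFP cells had 1. Of all genes, 48.2% and 49.1% lay below in these libraries. Xbp1 was at 635, 340 and 773, at 1010, 499 and 938 and at 839, 446 and 542 in the same order, and Hsp90b1 spanned 1261 to 2405 over the 9 libraries.

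Both unsorted libraries of the small intestine were above all 9 sorted ones for Hspa5 (24664 and 17206), Xbp1 (1095 and 1754), Atf6 (137 and 124) and Herpud1 (1841 and 2145). With these, 4 of 10 members were higher without overlap than high GFP cells, 6 than low GFP cells and 4 than GFP-negative cells, where 27.3%, 29.4% and 28% of genes were. Pdia4 was lower than in GFP-negative cells (29 and 25 against 56, 72 and 33), where 18.4% of genes were. Plasma and B cell markers summed to 182156 and 191545 there, against at most 12982 in a sorted library, and their part was not tested.

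Over the 10 groups, the order of the means was clear for few genes. Herpud1 and Xbp1 were highest in unsorted cells of the normal colon and of the small intestine, with no overlap with the next group, and both had their highest mean in GFP-negative cells of the DSS colon. There Herpud1 overlapped neither other group, while Xbp1 overlapped GFP-positive cells, though not unsorted cells, which were next by mean. In the normal colon the gap for Herpud1 depends on the values taken, as given above. Sdf2l1 was highest in unsorted cells of the normal and DSS colon without overlap. For Pdia4, at 12 to 72, and for Dnajb9, at 84 to 782, neighbours in the order overlapped in all tissues. As a share of all counts of a library, Hspa5 held 0.677% to 1.52% in the normal colon, where it was the gene of rank 1 to 5, 1.22% to 2.01% in the DSS colon (rank 1 to 2) and 0.257% to 0.988% in the small intestine (rank 2 to 41). A transcript gives about 1 read whatever its length by this 3′ method, so ranks were taken without a length correction. These shares come from tables normalised separately and set no test between tissues.

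**Figure D5:**
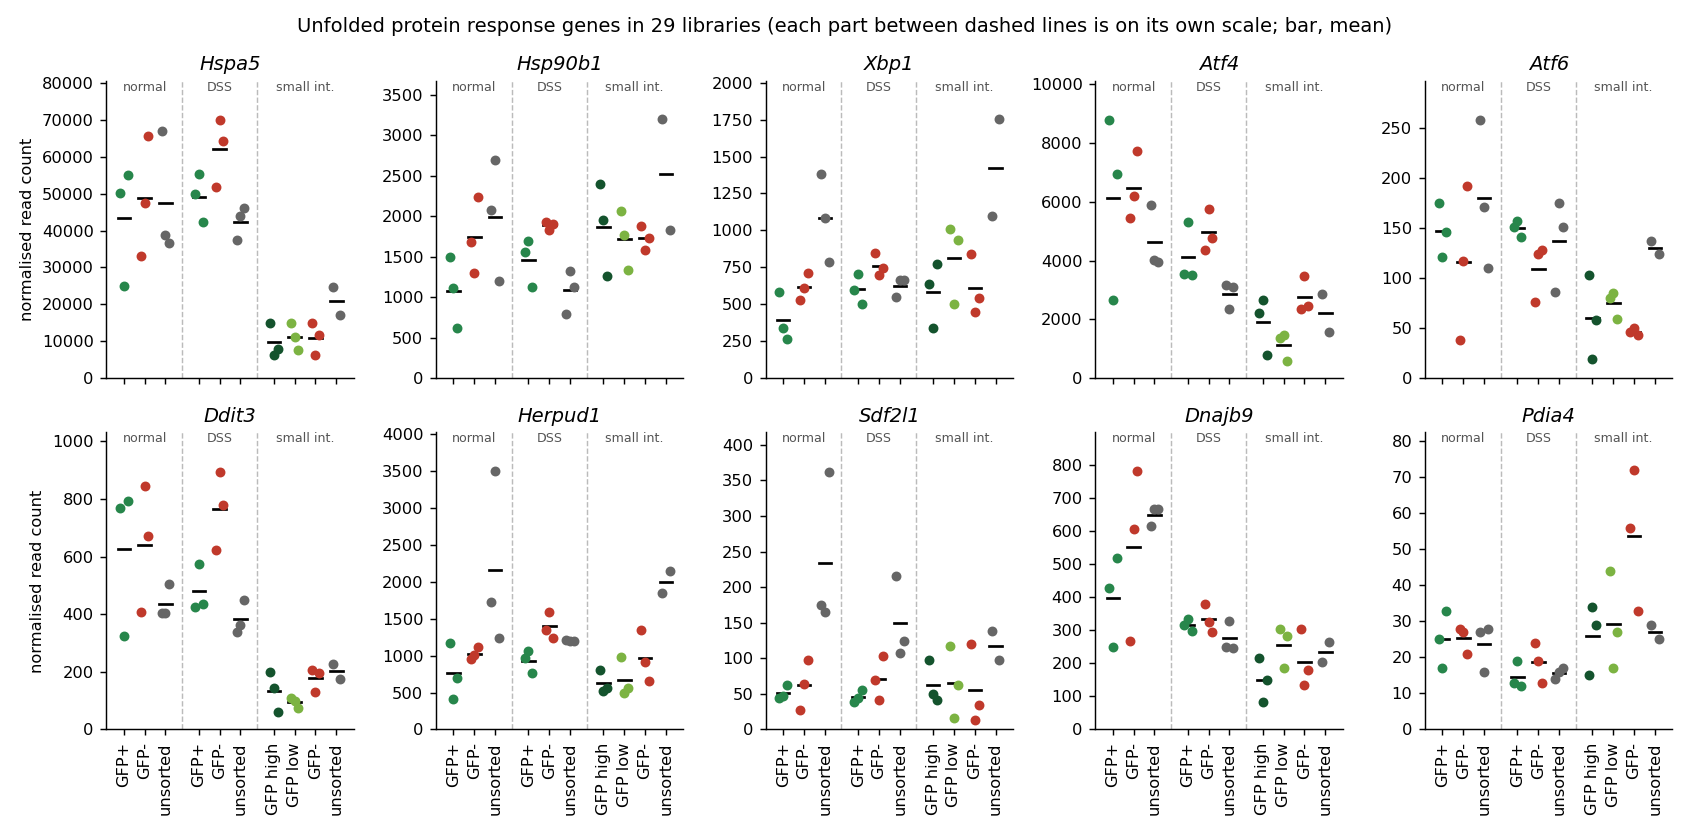
Normalised read counts (vertical axes, linear from 0) of the 10 genes in 29 libraries, with a bar at each mean. Dashed lines part the normal colon, DSS colon and small intestine, whose scales differ, and Sdf2l1 of unsorted normal colon lies at 165 to 362, above the sorted cells at 27 to 98.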

How the data were processed

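Per the labels, RNA with an integrity number over 7 was sequenced with the QuantSeq 3′ kit on an Ion Proton. Per the submitters' processing notes, TopHat2, Bowtie2, DESeq and mm10 were used. The sources used here give no versions, counting method or gene models. The deposited main values (unit score) are normalised read counts per the file headers, rounded by the authors. The deposited log2 values, log2 fold changes, p-values and fold ratios are the authors' DESeq output, of which p-values, FDR and log2 fold changes were read. The deposited per-gene-length signal and GC fraction, made by the authors, were not used.

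Groups were compared on log2(value + 1) by limma 3.58.1 (R 4.3.3) with trend and robust variance, over genes whose mean reached 10 in a compared group. All 10 members passed in each of the 8 fits. P-values were Benjamini-Hochberg adjusted, with a threshold of 0.05. Fold changes on this scale understate those of low genes. The fit was tested on simulated data in which every gene had the same spread, the median over genes. No change was planted in a gene as low as Pdia4. The labels do not say whether samples of the same number share a mouse, so no block was used in the main fits. The members, gene lists and comparisons were chosen with earlier results of these data known. From each wider list the text names up to 3 highest and 3 lowest among genes past the threshold, with Ern1 and Eif2ak3 always, and, for Hspa5, the 5 nearest genes. Alternatives were another pseudocount (8), no filter, other scalings, plain variance, a replicate block, single libraries left out and, chosen after seeing the data, values of other tables. Replicate 1 of unsorted small intestine was not analysed here.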

Additional observations from a re-analysis of the deposited data

How the results depend on the processing

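Of 1080 values for single members under the alternatives, 985 kept their direction and their side of the threshold, 19 lost and 2 gained the call, and 74 changed direction, all but 9 of these with a library left out. The cause was not tested. With normal libraries taken from the normal colon table, Herpud1 was the 1 member called in the DSS response of GFP-negative cells (0.92, adjusted p = 0.0350), an alternative chosen after seeing the data. Members called in the DSS response of GFP-positive cells came to 1 under upper quartile scaling and 1 without trend and robust variance, where Hsp90b1 was lost (adjusted p = 0.0519 and 0.0866), and to 0 to 2 with a library left out. In the DSS colon they came to 1 with equal totals, where Herpud1 was lost (adjusted p = 0.0517), to 0 without trend and robust variance (adjusted p = 0.0921 for Ddit3 and 0.112 for Herpud1), and to 0 to 2 with a library left out. With equal totals the DSS difference of Atf4 was -0.074 in GFP-positive and -0.019 in GFP-negative cells and that of Pdia4 -0.079 in GFP-negative cells, and under upper quartile scaling Atf4 was at -0.047 in GFP-positive and Pdia4 at -0.031 in GFP-negative cells. Equal totals also turned Pdia4 in the normal colon (0.018), Dnajb9 in the DSS colon (0.0053), Xbp1 between high GFP and GFP-negative cells (0.013) and Hsp90b1 between low GFP and GFP-negative cells (0.037).

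Equal totals moved the median DSS difference of all genes to -0.13 in GFP-positive and -0.13 in GFP-negative cells, and upper quartile scaling to -0.10 in GFP-positive cells. Genes higher and lower with DSS were 1328 and 1227 in GFP-positive cells, against 989 and 1585 with equal totals and 1069 and 1566 under upper quartile scaling. In GFP-negative cells they were 785 and 556, against 612 and 775 and 660 and 682. Between the sorts of the DSS colon they were 1033 and 1119, against 1206 and 923 with equal totals, and between high GFP and GFP-negative cells 49 and 62, against 58 and 50. Of all genes, the difference of responses called 7, and 13 with a pseudocount of 8. High GFP against GFP-negative cells called 111, and 21 without trend and robust variance. Low GFP against GFP-negative cells called 84, and 143 with a pseudocount of 8, 44 with equal totals and 0 without trend and robust variance. High against low GFP called 47, and 0 without trend and robust variance.

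With the replicate number as a block, low GFP against GFP-negative cells called 43 genes and high against low GFP 91, and the calls of members were the same in number, 2 in each of the DSS response of GFP-positive cells and the DSS colon. The numbers are not taken to pair samples, as the labels name no mouse. In no comparison did all 3 same-numbered pairs of libraries deviate together with a correlation over 0.1. Correlations were 0.122, 0.015 and 0.168 for the DSS response of GFP-negative cells and 0.102, 0.23 and 0.0777 for high against low GFP. In both, 3 of 3 libraries correlated best with their own number, a hint from the data and not the design. For the DSS response of GFP-positive cells they were -0.052, -0.081 and -0.0012, where 0 of 3 did. Between GFP-negative and GFP-positive cells they were 0.15, -0.188 and 0.118 in the normal colon. In the DSS colon they were 0.0301, 0.162 and 0.04, and 1 of 3 did in each tissue. Whether sorts of the same number came from the same mouse cannot be told from the labels.

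With single libraries left out, all genes called ranged from 1253 to 2611 for the DSS response of GFP-positive and 360 to 1882 for that of GFP-negative cells, from 2 to 15 for their difference, from 454 to 888 in the normal and 1431 to 2040 in the DSS colon, and from 24 to 104, 6 to 76 and 14 to 52 for high GFP against GFP-negative, low GFP against GFP-negative and high against low GFP. Members with a change of direction spanned these log2 differences. The DSS response of GFP-positive cells gave -0.47 to 0.39 for Atf4, -0.23 to 0.41 for Ddit3, -0.066 to 0.71 for Herpud1 and -0.10 to 0.43 for Dnajb9. That of GFP-negative cells gave -0.013 to 0.24 for Atf4, -0.016 to 1.14 for Atf6, -0.58 to 0.19 for Dnajb9 and -0.15 to 0.24 for Pdia4. The difference of responses gave -0.49 to 0.12 for Hspa5, -0.57 to 0.29 for Atf4, -0.62 to 0.53 for Atf6, -0.67 to 0.10 for Herpud1 and -0.85 to 0.077 for Sdf2l1. The normal colon gave -0.45 to 0.16 for Hspa5, -0.57 to 0.29 for Atf4, -0.041 to 1.11 for Atf6, -0.37 to 0.34 for Ddit3, -0.63 to 0.28 for Sdf2l1 and -0.27 to 0.19 for Pdia4, and the DSS colon -0.16 to 0.027 for Dnajb9. High GFP against GFP-negative cells gave -0.57 to 0.071 for Hspa5, -0.14 to 0.33 for Hsp90b1, -0.34 to 0.25 for Xbp1, -0.46 to 0.73 for Atf6 and -0.15 to 1.41 for Sdf2l1. Low GFP against GFP-negative cells gave -0.29 to 0.32 for Hspa5, -0.17 to 0.15 for Hsp90b1 and -0.39 to 1.16 for Sdf2l1. High against low GFP gave -0.64 to 0.0072 for Hspa5, -0.11 to 0.35 for Hsp90b1, -1.12 to 0.067 for Atf6, -0.0065 to 0.86 for Ddit3, -0.26 to 0.25 for Herpud1, -0.54 to 0.87 for Sdf2l1 and -0.47 to 0.20 for Pdia4.

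Depth limits the low members most: Pdia4, Atf6 and Sdf2l1 were at most 72, 258 and 362 in any library used. With the same spread given to every gene, limma called 78% of simulated 2-fold changes in the DSS response of GFP-positive and 56% in that of GFP-negative cells. The changes were planted in genes higher than Pdia4, so these rates are not those of single members.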
